A study of Mus musculus with 5 samples.

Results

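Foxn1 and 8 genes of cortical thymic epithelium were compared between ZAS3-null and wild-type mouse thymus. The 9 genes were Foxn1, Psmb11, Prss16, Ctsl, Ly75, Krt8, Krt18, Pax1 and Pax9, chosen by symbol as genes of this epithelium, with no threshold on their values, though with earlier results of these data known. All 9 were on the array, each read by 1 probe, among 16504 named genes in all. Foxn1 had a positive log2 ratio on every array, by 1.46-fold on average, while none of the other 8 genes passed the test both before and after a correction for position on the slide. Of all named genes 16.7% were positive on every array before the correction and 11.7% after it. The test was passed by 24.8% before and 2.91% after, so its outcome for the other 8 is no result about them. After correction Foxn1 did not pass without array 1, 4 or 5.

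The cortex of the thymus is where most T cell precursors rearrange their receptor genes and are positively selected on self peptides shown by epithelial cells. Foxn1 is the forkhead transcription factor on which the differentiation of thymic epithelium depends, and its loss causes the nude mouse. Cortical epithelial cells make an unusual set of self peptides with a thymus-specific proteasome subunit (Psmb11) and with dedicated proteases of the class II pathway (Prss16 and Ctsl). They also carry the endocytic receptor Ly75 and the simple-epithelium keratins Krt8 and Krt18. Pax1 and Pax9 act earlier, in the pharyngeal pouch from which the thymus forms.

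Total RNA of whole thymus was compared on 5 2-colour Agilent arrays, each of which paired a ZAS3-null thymus with the thymus of a wild-type littermate matched for sex and age, at 6 to 8 weeks. ZAS3 is the zinc finger protein made by Hivep3; the mutant allele, the strain and any pooling of animals are not given in the sources used here. The sample labels name whole thymus as the source, whereas the series design text speaks of thymocytes. The 5 arrays form 1 group of ZAS3-null over wild-type ratios, and 0 arrays set samples of the same genotype against each other.

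A log2 ratio of 0 means equal signal from both genotypes. The sample labels put the ZAS3-null RNA in Cy5 and the design text puts it in Cy3, so the direction is not settled; going by the titles and by the channel order, a positive value likely stands for a higher level in ZAS3-null thymus. Without a dye swap, a dye effect and a genotype effect cannot be told apart. Ratios hold no brightness, so it could not be checked whether the epithelial markers were above background in this tissue, and the number of arrays sets the precision. In whole-organ RNA, fewer cells of a type and less RNA per cell cannot be told apart either.

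Gene names rest on an exchanged order of rows and columns of spots, worked out from the values themselves, because the deposited numbers and the annotation ran along different sides of the slide. The ratios also followed the slide. Across the 5 arrays, medians ranged from -0.25 to -0.11 in the first 10 columns of spots and from 0.23 to 0.31 in the last 10. Most values are therefore given in 2 forms: as deposited, and after subtraction of a local median (a block of 21 by 21 spots around the spot, on its own array), called the position correction. The targeted gene, Hivep3, had 0.08 ± 0.07 as deposited (SD, n = 5; limma adjusted p = 0.37) and 0.17 ± 0.09 after correction (limma adjusted p = 0.141), which does not check the labels because the position of its probes relative to the deletion is unknown. Correlations of the 5 arrays with each other across spots, which are not independent replicates, ranged from 0.14 to 0.71. They were taken on the values as deposited, with the trend across the slide still in them.

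**Figure D1:**
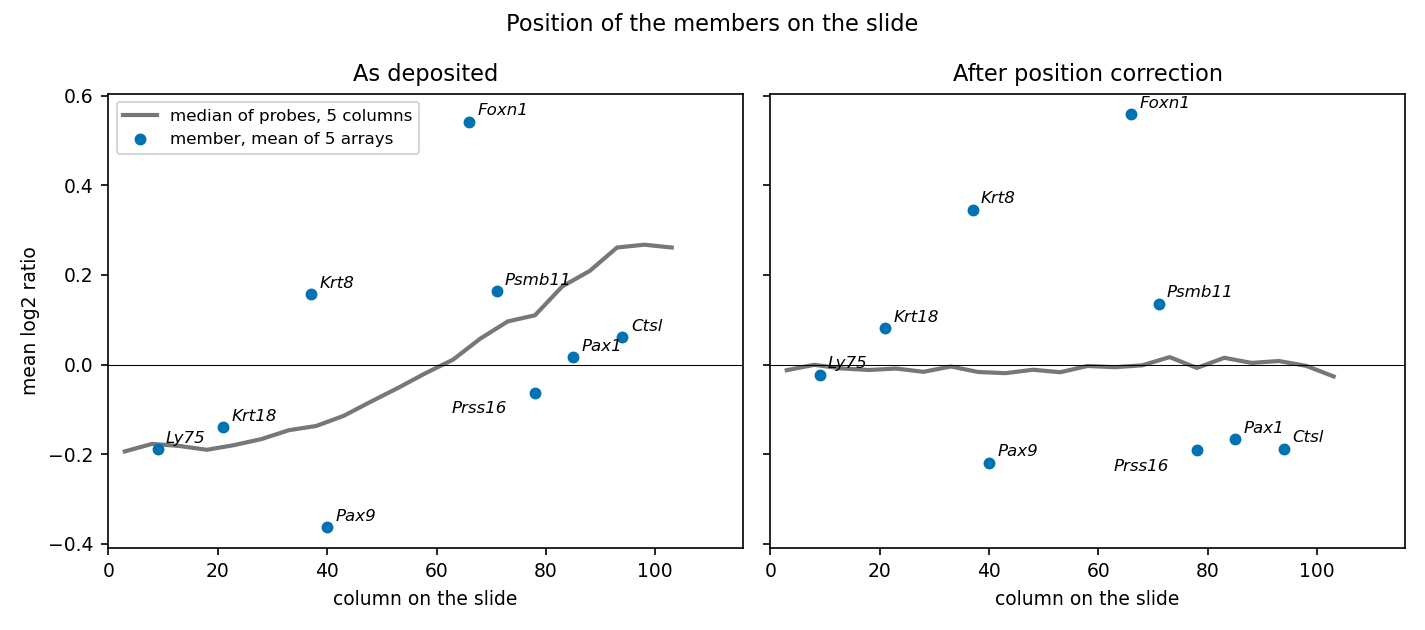
Mean log2 ratio of each member (points, mean of 5 arrays) by the column of its spot on the slide, as deposited (left) and after position correction (right); the grey line is the median of all named probes in bins of 5 columns. As deposited the line climbs with the column, Foxn1 in column 66 stands well above it, and Ly75 and Krt18 lie close to it.

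The 3 promoter windows given here show where the letters bound by the Foxn1 protein occur near these genes. Foxn1 recognises the motif GACGC, and Psmb11 is a known direct target of Foxn1. The windows run from 250 bases before to 50 bases after the annotated start, from RefSeq on GRCm38.p6, and were searched for GACGC on both strands (GCGTC on the opposite one). Capitals mark the matches. Of the 8 members with a window, 2 held a match, Psmb11 and Pax1, against 27.2% of all 32851 windows of that length. Psmb11 had GCGTC at 239 and 62 bases before the start, Pax1 had GACGC at 86 bases before it, and the Foxn1 window had no match. The windows are chr11:78386559-78386858 on the minus strand for Foxn1, chr14:54625060-54625359 on the plus strand for Psmb11 and chr2:147364744-147365043 on the plus strand for Pax1. The starts used for Foxn1 and Pax1 lie inside the gene spans given below, not at their outer ends. The whole Pax1 window, with its match, lies inside the gene span from 147361930 to 147375049.
Foxn1: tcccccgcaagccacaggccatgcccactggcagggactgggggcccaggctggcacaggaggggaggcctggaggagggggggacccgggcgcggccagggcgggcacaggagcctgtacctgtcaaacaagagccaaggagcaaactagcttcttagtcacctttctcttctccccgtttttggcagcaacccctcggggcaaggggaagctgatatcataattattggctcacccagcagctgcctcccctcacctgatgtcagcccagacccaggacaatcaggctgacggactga
Psmb11: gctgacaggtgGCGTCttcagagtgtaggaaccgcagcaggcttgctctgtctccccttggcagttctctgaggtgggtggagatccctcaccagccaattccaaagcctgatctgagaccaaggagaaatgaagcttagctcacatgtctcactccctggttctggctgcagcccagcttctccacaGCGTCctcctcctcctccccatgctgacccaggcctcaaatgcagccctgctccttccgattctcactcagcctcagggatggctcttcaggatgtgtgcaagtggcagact
Pax1: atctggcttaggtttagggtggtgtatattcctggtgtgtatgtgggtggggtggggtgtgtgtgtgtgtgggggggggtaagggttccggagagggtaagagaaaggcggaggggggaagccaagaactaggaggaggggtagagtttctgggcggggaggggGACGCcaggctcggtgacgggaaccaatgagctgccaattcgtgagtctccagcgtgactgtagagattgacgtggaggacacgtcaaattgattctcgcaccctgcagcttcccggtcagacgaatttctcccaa
These matches are a description of letters: the 2 genes with a match had mean log2 ratios of 0.16 and 0.02 as deposited, both below the 0.54 of Foxn1.

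Foxn1 was the member that passed the test both as deposited and after correction. It lies on chromosome 11 from 78357577 to 78386783 (GRCm38.p6). Its log2 ratios on arrays 1 to 5 were 0.54, 0.73, 0.43, 0.51 and 0.51 as deposited, and 0.56, 0.83, 0.45, 0.46 and 0.48 after position correction. All 5 arrays were positive, array 2 was the highest and the other arrays lay close together. Among all genes, 16.7% were positive on every array as deposited and 11.7% after correction. The mean was 0.54 ± 0.11 as deposited (SD, n = 5; 95% interval 0.38 to 0.70; limma adjusted p = 0.00524), a fold of 1.46. After correction it was 0.56 ± 0.16 (95% interval 0.38 to 0.74; limma adjusted p = 0.0135), a fold of 1.47. Adjusted p-values are over all features on the array, and 0.05 is the threshold for a call.

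The Foxn1 value was about as large after the position correction. Its surroundings had medians between -0.10 and 0.04 on the 5 arrays. Of the 438 spots in its window, between 8 and 14 had a higher ratio than Foxn1 on any one array. Among all 16504 genes, 283 had a higher mean than Foxn1 as deposited and 20 after correction. The call as deposited was kept with any 1 array left out (limma adjusted p up to 0.0355). After correction it was lost without array 1, 4 or 5 (limma adjusted p = 0.0653, 0.0665 and 0.075), with means of 0.56, 0.58 and 0.58.

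**Figure D2:**
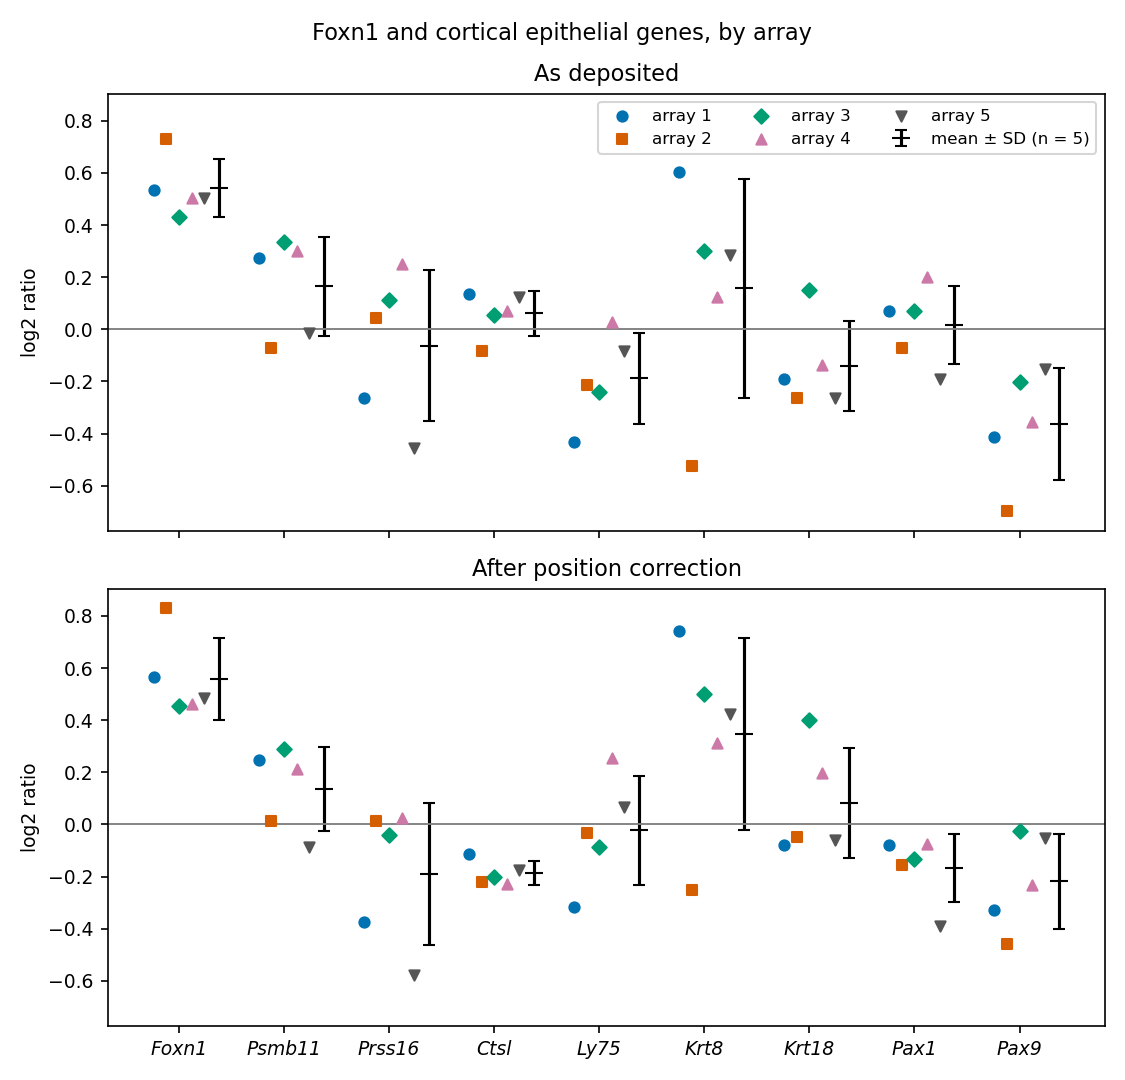
Log2 ratio of each member on each of the 5 arrays (coloured points), with the mean ± SD over arrays (black), as deposited (top) and after position correction (bottom). Foxn1 is above 0.4 on every array in both panels, and the Krt8 value of array 2 lies apart from the other 4.

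The peptide-making genes of the cortex, Psmb11, Prss16 and Ctsl, did not pass the test in either form with all 5 arrays weighted equally. Psmb11, the beta5t subunit that replaces the usual chymotrypsin-like subunit in cortical epithelium (chromosome 14, 54625310 to 54629556), had 0.28, -0.07, 0.33, 0.30 and -0.01 on arrays 1 to 5 as deposited. After correction it had 0.25, 0.01, 0.29, 0.21 and -0.08. Arrays 1, 3 and 4 were positive both times, and arrays 2 and 5 lay near 0. The corrected mean was 0.14 ± 0.16 (95% interval of the fold 0.966 to 1.25; limma adjusted p = 0.295), and the mean as deposited was 0.16 ± 0.19 (limma adjusted p = 0.199).

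Prss16, the thymus-specific serine protease of cortical epithelium (chromosome 13, 22002176 to 22009741), differed between arrays. Its corrected log2 ratios were -0.37, 0.01, -0.04, 0.02 and -0.58, with arrays 1 and 5 clearly below the other 3. As deposited they were -0.26, 0.04, 0.11, 0.25 and -0.45. The mean was -0.19 ± 0.27 after correction (95% interval of the fold 0.732 to 1.05; limma adjusted p = 0.291) and -0.06 ± 0.29 as deposited (limma adjusted p = 0.709). Without array 5 the mean as deposited was 0.04, on the other side of 0.

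Ctsl, cathepsin L, which trims the invariant chain and makes class II peptides in cortical epithelium (chromosome 13, 64361890 to 64370772), changed sign with the correction. As deposited its log2 ratios were 0.14, -0.08, 0.06, 0.07 and 0.12, with a mean of 0.06 ± 0.09 (limma adjusted p = 0.489). Its spot lies in column 94, where the window medians were between 0.14 and 0.30, and after correction the values were -0.11, -0.22, -0.20, -0.23 and -0.17. These were all negative and close together, with a mean of -0.19 ± 0.05 (95% interval -0.32 to -0.05; limma unadjusted p = 0.0137, adjusted p = 0.0998). The corrected value did not pass the threshold with equal weights, and did with array weights (limma adjusted p = 0.049). Array weights also raised the corrected calls over all 20861 features from 825 to 3841. The SD of 0.05 compares with a median SD of 0.18 over all genes.

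Ly75, the endocytic receptor CD205, which dendritic cells also carry (chromosome 2, 60292103 to 60383273), lay near 0 after correction. Its values were -0.32, -0.03, -0.09, 0.26 and 0.07, on both sides of 0, with a mean of -0.02 ± 0.21 (95% interval of the fold 0.848 to 1.14; limma adjusted p = 0.886). As deposited 4 of its 5 values were negative, with a mean of -0.19 ± 0.17 (limma adjusted p = 0.133), and its spot lies in column 9, where the window medians were between -0.23 and -0.12.

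Krt8 and Krt18, which pair to form the keratin filaments of cortical and other simple epithelia, did not pass the test with all 5 arrays weighted equally. Krt8 (chromosome 15, 101996711 to 102004342) had corrected log2 ratios of 0.74, -0.25, 0.50, 0.31 and 0.42, against 0.60, -0.53, 0.30, 0.12 and 0.29 as deposited. Array 2 was negative and the other 4 were positive. Its mean after correction was 0.35 ± 0.37 (limma unadjusted p = 0.0427, adjusted p = 0.167), the 2nd highest among the members, with 474 of all genes above it. Its mean as deposited was 0.16 ± 0.42 (limma adjusted p = 0.484). Without array 2 Krt8 passed the test both times (limma adjusted p = 0.0417 as deposited and 0.0269 after correction). With array weights, which keep all 5 arrays, it passed after correction (limma adjusted p = 0.0278). These settings also called more of all 20861 features. Without array 2, calls rose from 5126 to 6126 as deposited and from 825 to 1738 after correction. With array weights they rose to 3841 after correction.

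Krt18 (chromosome 15, 102028216 to 102032026) had -0.08, -0.05, 0.40, 0.20 and -0.06 after correction, with a mean of 0.08 ± 0.21 (limma adjusted p = 0.576). As deposited it had -0.14 ± 0.17 (limma adjusted p = 0.236) and was positive on array 3 only. Within arrays, Krt8 minus Krt18 was 0.82, -0.20, 0.10, 0.12 and 0.49 after correction, positive on 4 of 5. The mean difference was 0.26 ± 0.40 (exact two-sided sign-flip test, n = 5, p = 0.25), within the spread between arrays. With 5 arrays the smallest p this test can give is 0.0625.

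The paired-box genes gave 1 call before the correction. Pax9 (chromosome 12, 56691693 to 56712824) had -0.41, -0.70, -0.20, -0.36 and -0.15 on arrays 1 to 5 as deposited, negative on every array, as were 20.5% of all genes (14.5% after correction). Its mean was -0.36 ± 0.21 (95% interval of the fold 0.667 to 0.906; limma adjusted p = 0.034). After correction the values were -0.33, -0.46, -0.03, -0.23 and -0.05, with a mean of -0.22 ± 0.18 that did not pass (limma adjusted p = 0.152). Its spot lies in column 40, where the window medians were between -0.24 and -0.08. The call as deposited was also lost without array 1, 3, 4 or 5 (limma adjusted p = 0.0882, 0.0572, 0.1 and 0.069).

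Pax1 (chromosome 2, 147361930 to 147375049), whose loss in mice impairs thymus growth, had -0.08, -0.15, -0.13, -0.07 and -0.39 after correction. All 5 values were negative and array 5 was the lowest. The mean was -0.17 ± 0.13 (95% interval of the fold 0.793 to 1.00; limma adjusted p = 0.184), against 0.02 ± 0.15 as deposited (limma adjusted p = 0.884). Pax1 minus Pax9 had a mean of 0.38 ± 0.27 as deposited (exact two-sided sign-flip test, n = 5, p = 0.125) and 0.05 ± 0.27 after correction (exact p = 0.6875).

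As a set, the members were called about as often as other genes before the correction. As deposited 2 of 9 passed, Foxn1 positive and Pax9 negative, where 24.8% of all named genes did (12.0% positive and 12.9% negative). After correction 1 of 9 passed, Foxn1, where 2.91% of all genes did (0.612% positive and 2.30% negative). At an unadjusted limma p under 0.05 the members counted 2 as deposited and 4 after correction, beside 40.3% and 27.0% of all genes. The members' median of mean log2 ratios was 0.02 as deposited and -0.02 after correction, and that of all genes -0.03 and -0.01. The rule of the series design text, 1.5-fold on at least 4 of 5 arrays, was met by 0 members both times, and by 0.866% of all genes as deposited and 0.242% after correction. Foxn1 passed 1.5-fold on 1 array and 1.3-fold on every array, both times.

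**Figure D3:**
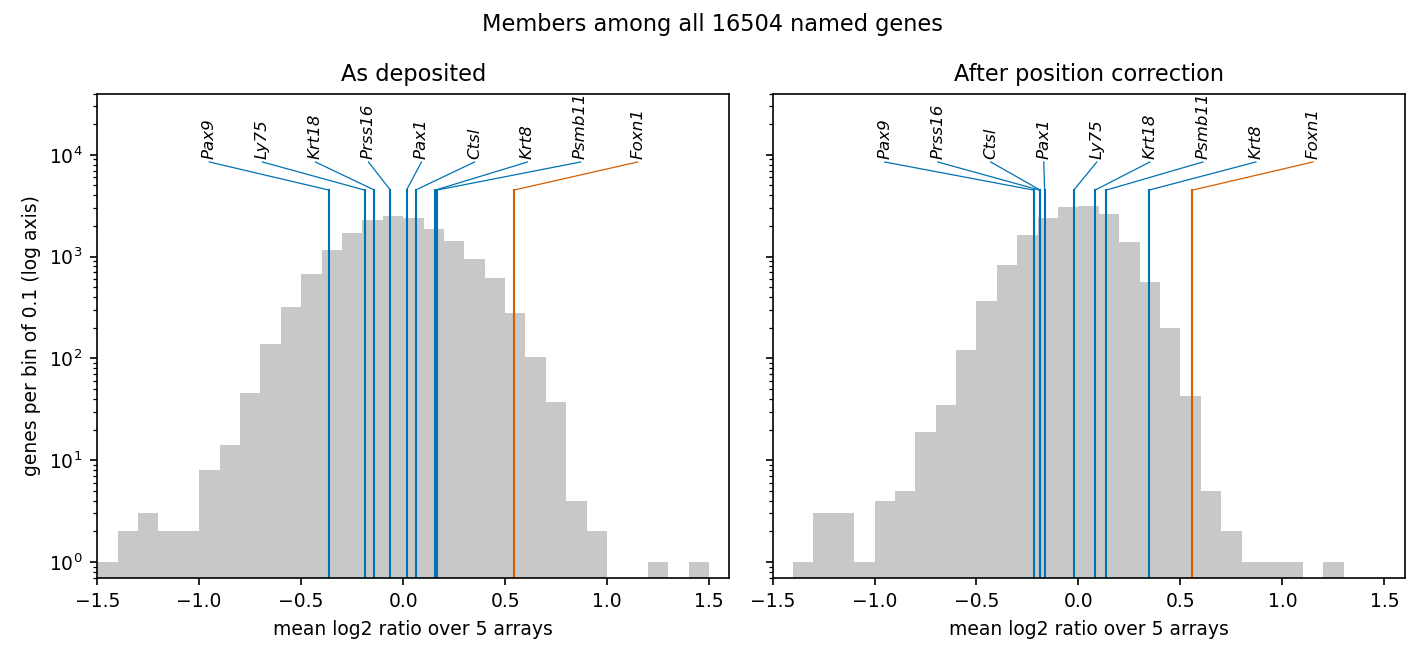
Distribution of the mean log2 ratio over 5 arrays for all named genes (grey bars, genes per bin of 0.1, log axis, shown between -1.5 and 1.6) with the members marked by lines (Foxn1 in orange, the others in blue), as deposited (left) and after position correction (right). Foxn1 lies in the right tail, with 283 and 20 genes above it, and the others apart from Krt8 lie in the body of the corrected distribution.

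Array by array, the members did not share a direction. After correction 3, 3, 4, 6 and 3 of the 9 were positive on arrays 1 to 5, with medians of -0.08, -0.05, -0.03, 0.20 and -0.06. Arrays 4 and 3 had the most positive members, and Foxn1 and Krt8 were the highest 2 on every array except array 2, where Krt8 was the 2nd lowest. Within arrays, Foxn1 exceeded Psmb11, Prss16, Ctsl, Ly75, Krt18, Pax1 and Pax9 on 5 of 5 arrays, as deposited and after correction. The corrected mean differences of these 7 ran from 0.42 ± 0.27 for Psmb11 to 0.78 ± 0.33 for Pax9 (exact two-sided sign-flip test, n = 5, each p = 0.0625; 0.0714 after Benjamini-Hochberg adjustment over 8 pairs). That p is the smallest that 5 arrays allow, so these differences cannot pass 0.05 by this test. Foxn1 exceeded Krt8 on 3 of 5 arrays after correction and 4 of 5 as deposited, with mean differences of 0.21 ± 0.50 and 0.38 ± 0.51 (exact p = 0.5625 and 0.125).

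**Figure D4:**
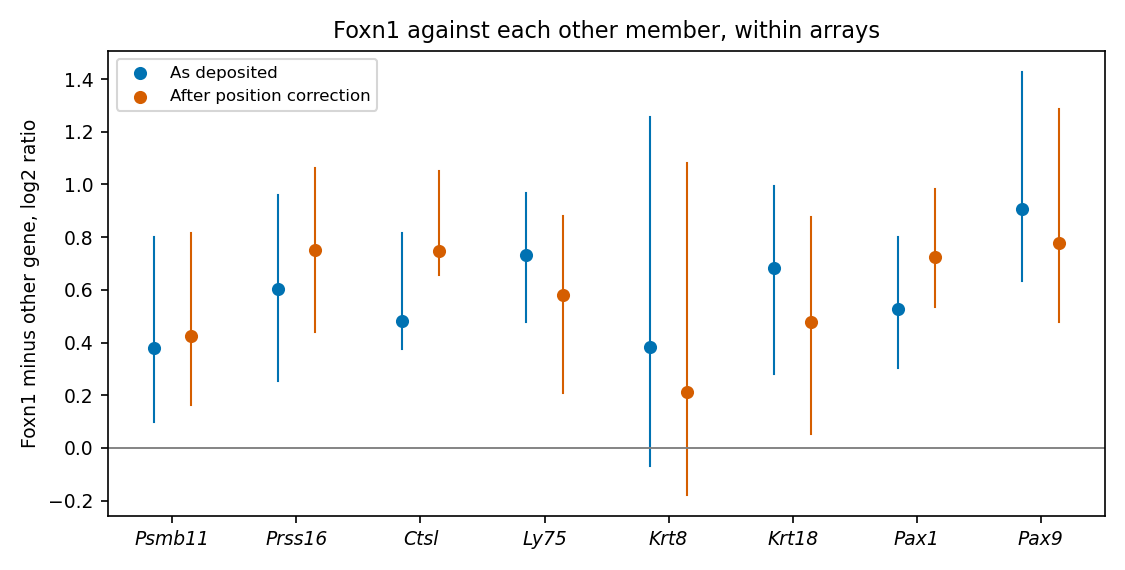
Foxn1 minus each other member within an array, in log2 ratio units: points are the mean over 5 arrays and lines run from the lowest to the highest array, as deposited (blue) and after position correction (orange). For 7 of the 8 genes the whole line lies above 0, and for Krt8 it reaches below 0.

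The genes with values nearest to those of Foxn1 were picked by distance. Only 8 of the ranked genes were members, so their absence from the nearest 5 is no result about them. By Euclidean distance between corrected log2 ratios over the 5 arrays, the nearest 5 of 16503 genes were Gnai1 (0.19), Olfr27 (0.24), Fcgr4 (0.26), Olfr1270 (0.27) and Kcne3 (0.28), each measured by 1 probe. The corrected means of these 5 genes were 0.57, 0.59, 0.48, 0.57 and 0.47, near that of Foxn1 because they were chosen by distance. Gnai1 encodes an inhibitory G protein subunit, Fcgr4 an Fc receptor, Kcne3 a potassium channel subunit, and the remaining pair odorant receptors. Among the members Psmb11 was the nearest, at a distance of 1.09 and rank 3878, followed by Krt8 at 1.11 and rank 4157. Pax9 was the farthest, at 1.86 and rank 13652.

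Other genes of cortical epithelium included 1 call after correction, on the negative side. Beside this and the later lists, 24.8% of all named genes were called as deposited and 2.91% after correction. At an unadjusted limma p under 0.05 the shares were 40.3% and 27.0%. Of 10 genes, all measured, 0 were positive and 2 negative past the threshold as deposited, and 0 and 1 after correction, with median means of 0.01 and -0.10. Kitl, the stem cell factor that supports early thymocytes, had -0.69, -0.67, -0.39, -0.18 and -0.42 as deposited and -0.74, -0.57, -0.39, -0.25 and -0.42 after correction. It was negative on every array, with means of -0.47 ± 0.21 (limma adjusted p = 0.016) and -0.47 ± 0.19 (limma adjusted p = 0.0363). The corrected call was lost without array 1, 3, 4 or 5 (limma adjusted p up to 0.167), and that as deposited without array 5 (limma adjusted p = 0.0641).

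Dll4 and Ccl25, both known targets of Foxn1 in thymic epithelium, had ratios of opposite sign. Dll4, the Notch ligand that commits precursors to the T lineage, had 0.24 ± 0.18 as deposited and 0.24 ± 0.20 after correction, positive on 4 of 5 arrays (limma adjusted p = 0.0758 and 0.143). Ccl25, a chemokine that draws precursors into the thymus, had -0.25 ± 0.06 as deposited (limma adjusted p = 0.0245) and -0.16 ± 0.09 after correction (limma adjusted p = 0.159), negative on 5 of 5 arrays. The Ccl25 call was lost without array 1, 3, 4 or 5 (limma adjusted p up to 0.107). Enpep, the peptidase recognised by the cortical antibody Ly51, had -0.20 ± 0.16 after correction and 0.11 ± 0.16 as deposited (limma adjusted p = 0.153 and 0.33).

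Regulators of pouch and epithelial patterning gave no call after correction, which for so few genes is near the 2.91% of all genes. Of 14 measured, 4 were positive and 2 negative as deposited, and 0 passed after correction (3 had an unadjusted limma p under 0.05), with a corrected median of 0.06. Wnt5b, a Wnt ligand, had 0.30 ± 0.19 (limma adjusted p = 0.086) and Six4, a homeobox gene of the pouch, -0.21 ± 0.10 (limma adjusted p = 0.101) after correction. As deposited they had 0.05 ± 0.24 and -0.40 ± 0.12 (limma adjusted p = 0.723 and 0.0111), and the Six4 call was lost without array 5 (limma adjusted p = 0.0585). Six4 lies in column 4 of the slide. The 4 positive calls as deposited were Fgf10, Hoxa3, Isl1 and Bmp4, with means of 0.36, 0.38, 0.33 and 0.24. Their limma adjusted p ran from 0.00926 to 0.0483, and their spots lie in columns 85 to 97. The other negative call was Trp63 in column 1, at -0.39 (limma adjusted p = 0.02).

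Genes of medullary epithelium, the neighbouring compartment, had no call after correction either, again near the 2.91% of all genes. Of 13 genes measured, 2 were positive and 1 negative as deposited, and 0 passed after correction (3 had an unadjusted limma p under 0.05), with a corrected median of 0.14. Fezf2, a regulator of self-antigen expression in the medulla, had -0.23 ± 0.11 after correction (limma adjusted p = 0.0953) and -0.36 ± 0.14 as deposited (limma adjusted p = 0.0163, lost without array 4 or 5, up to 0.0569). Krt14, a keratin of medullary epithelium, had 0.19 ± 0.10 after correction and 0.13 ± 0.11 as deposited, positive on 5 of 5 arrays (limma adjusted p = 0.126 and 0.178). The 2 positive calls as deposited were Krt17 at 0.44 ± 0.19 and Cldn3 at 0.50 ± 0.34 (limma adjusted p = 0.0147 and 0.0363). After correction they had 0.14 and 0.22. Ccl19 had 0.76 ± 0.65 as deposited, above Foxn1, but was not called (limma adjusted p = 0.0578). Its corrected mean was 0.45 ± 0.61 (limma adjusted p = 0.224). Of 12 genes shared by epithelia, 1 was positive and 2 negative as deposited and 0 passed after correction, where 0 had an unadjusted limma p under 0.05. Dsp, desmoplakin of the desmosome, had the smallest p of these, with -0.25 ± 0.26 after correction (limma adjusted p = 0.184). As deposited it had -0.41 ± 0.21 and was called (limma adjusted p = 0.0218), a call lost without array 1, 3 or 5 (limma adjusted p up to 0.0886). Itgb4, the positive call, had 0.31 ± 0.09 as deposited (limma adjusted p = 0.0162) and 0.14 ± 0.09 after correction.

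The protease and proteasome partners of Ctsl, Prss16 and Psmb11 gave 1 corrected call. Of 15 cathepsins, cystatins and related lysosomal genes, 2 were positive and 2 negative as deposited and 0 passed after correction (3 had an unadjusted limma p under 0.05). Ctss, the cathepsin of bone marrow-derived presenting cells, had -0.30 ± 0.16 after correction (limma adjusted p = 0.0754) and -0.40 ± 0.19 as deposited (limma adjusted p = 0.0206, lost without array 1, 4 or 5, up to 0.0769). Lgmn, an asparagine endopeptidase, had 0.17 ± 0.11 after correction and 0.17 ± 0.16 as deposited (limma adjusted p = 0.165 and 0.151), and the value as deposited passed without array 2 (limma adjusted p = 0.043). The positive calls as deposited were Ctsf at 0.48 and Cstb at 0.36 (limma adjusted p = 0.0206 and 0.0265), with 0.20 and 0.06 after correction.

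Of 9 measured 20S beta subunits other than Psmb11, 0 were positive and 2 negative as deposited, and 0 and 1 after correction. Psmb8, the immunoproteasome counterpart of Psmb11, had -0.53, -0.70, -0.09, -0.61 and -0.47 after correction, negative on every array and weakest on array 3. Its mean was -0.48 ± 0.23 (limma adjusted p = 0.0492), and -0.38 ± 0.28 as deposited (limma adjusted p = 0.0498). The corrected call was lost without array 1, 4 or 5 (limma adjusted p up to 0.195), and that as deposited without array 1, 2, 4 or 5 (limma adjusted p up to 0.14). The corrected call was also lost with a window of 41 by 41 spots or with column and row medians (limma adjusted p = 0.0541 and 0.0622). Psmb4 had -0.20 ± 0.05 after correction and -0.16 ± 0.10 as deposited (limma adjusted p = 0.0884 and 0.103).

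Markers of other cells and tissues in the organ were read beside these values. Of 11 thymocyte genes, 2 were positive and 5 negative as deposited and 0 passed after correction. After correction 8 had an unadjusted limma p under 0.05, beside 27.0% of all genes: Ptcra was positive and the rest negative. Ptcra had 0.35 ± 0.11 as deposited and was called (limma adjusted p = 0.0138). It had 0.33 ± 0.15 after correction (limma adjusted p = 0.0628), positive on every array both times. The corrected medians of the 11 genes on arrays 1 to 5 were -0.32, 0.06, -0.06, -0.30 and -0.40. Array 2 had the highest thymocyte median and the highest Foxn1 value. Array 3 had the next highest thymocyte median and, after correction, the lowest Foxn1 value (0.45). Zap70, a kinase of T cell receptor signalling, had -0.44 ± 0.17 as deposited and was called (limma adjusted p = 0.0128, and 0.062 without array 5). After correction it had -0.35 ± 0.13, at the threshold itself (limma adjusted p = 0.05, not called), and it passed with other windows, column and row medians, scaled arrays or array weights (limma adjusted p from 0.0187 to 0.0479). The 6 measured B cell genes had a corrected median of 0.19, with 4 positive and 1 negative as deposited and 0 calls after correction (3 had an unadjusted limma p under 0.05), and Ms4a1, the B cell surface protein CD20, had 0.34 ± 0.20 (limma adjusted p = 0.0759). As deposited Ms4a1 had 0.49 ± 0.26 and was called (limma adjusted p = 0.0209), a call lost without array 3, 4 or 5 (limma adjusted p up to 0.0829). The part of thymocytes or B cells in the Foxn1 ratio was not tested.

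Corrected medians of the remaining lists were -0.05 for 9 dendritic cell genes, 0.11 for 7 macrophage genes, 0.04 for 9 mesenchymal genes, -0.01 for 8 endothelial genes and 0.12 for 6 parathyroid and thyroid genes. In these 5 lists 0 genes passed after correction, with 2, 1, 0, 2 and 1 at an unadjusted limma p under 0.05. As deposited 2 dendritic cell genes were positive and 1 negative past the threshold, 1 macrophage gene was negative, 1 mesenchymal gene and 2 parathyroid and thyroid genes were positive, and 0 endothelial genes passed. Lyz2, lysozyme of macrophages, had -0.56 ± 0.33 after correction (limma adjusted p = 0.0606, and 0.0303 without array 3) and -0.49 ± 0.33 as deposited (limma adjusted p = 0.0355, lost without array 1, 2, 4 or 5, up to 0.122). Cd8a, which thymocytes and some dendritic cells share, had -0.33 ± 0.27 after correction (limma adjusted p = 0.114) and -0.50 ± 0.23 as deposited (limma adjusted p = 0.0155, lost without array 4 or 5, up to 0.0661). Pax8, a transcription factor of the thyroid, had 0.26 ± 0.18 after correction (limma adjusted p = 0.113) and 0.37 ± 0.15 as deposited (limma adjusted p = 0.017, lost without array 1, 4 or 5, up to 0.0768). All 3 were thus called as deposited only. The positive dendritic cell calls as deposited were Flt3 at 0.52 and Xcr1 at 0.37 (limma adjusted p = 0.0369 and 0.0108). Foxn1 is also active in hair follicles and epidermis. Of 11 genes of skin and hair, 0 were positive and 1 negative after correction, with a median of 0.11, against 3 and 1 as deposited. The negative one was Padi3, a peptidylarginine deiminase of hair, at -0.91 ± 0.31 (limma adjusted p = 0.0119, lost without array 1 or 5, up to 0.0726), and at -0.78 ± 0.37 as deposited (limma adjusted p = 0.0131, lost without array 5, 0.0605). The 3 positive calls as deposited were Krt33b, Krt34 and Ivl, at 0.33, 0.37 and 0.39 (limma adjusted p = 0.0363, 0.0124 and 0.0117). Pth, parathyroid hormone, singled out after its values were seen, had 0.11, 1.78, 1.21, 0.16 and -1.80 on arrays 1 to 5 as deposited, a wider range than any member, and its relation to the keratin values was not tested.

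**Figure D5:**
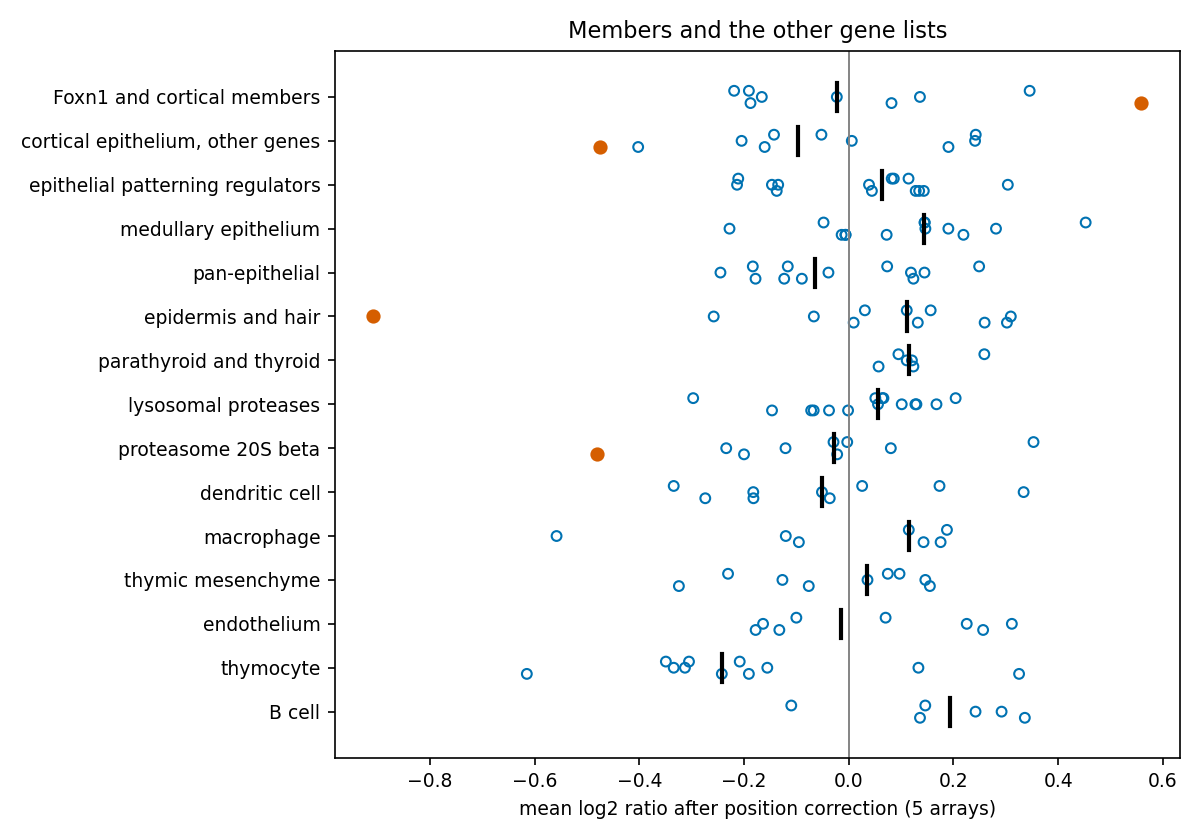
Mean log2 ratio over 5 arrays after position correction for each gene of each list (circles; filled orange where the limma adjusted p is under 0.05) with the list median (black bar). Orange points are Foxn1, Kitl, Padi3 and Psmb8, and Foxn1 is the only one of them on the positive side.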

How the data were processed

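RNA of ZAS3-null and wild-type thymus was compared on 5 arrays of 2 channels. The series design text names GenePix for the images, GeneTraffic 2.6 for the analysis and a global lowess normalization from which dim spots were left out. The deposited values are log2 ratios made by the authors. Their base was settled from the values: 100% are log2 of a fold with 2 decimals. Spot brightness and flags were not analysed here. The numbers of the value table were transposed relative to the annotation, an order chosen after the values were seen: under the exchanged order all 256 spots below -1.5 on every array fall on numbers without a gene, against 41 as deposited. Repeat spots of 48 genes (10 or more each) had median SDs from 0.18 to 0.23 under the exchanged order, and from 0.29 to 0.47 under the deposited one. The first 2 probes of a gene correlated at 0.29 under the exchanged order (0.13 after position correction) and 0.04 under the deposited one, across 1193 genes.

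Probes of a gene were averaged and unnamed probes kept single, which gave 20861 features. Each was tested against 0 with an intercept-only fit in limma 3.58.1 (R 4.3.3; lmFit and eBayes), adjusted over the whole array by Benjamini-Hochberg at a threshold of 0.05. For position correction the median of 21 by 21 spots was subtracted, the 256 low spots left out. Single differences had an exact sign-flip permutation test. The design text calls the hybridizations independent and the labels name no animals, so p-values measure the spread between these arrays, which may be technical in part. The genes named were the 9 members, Hivep3, up to 4 of each list with the smallest corrected p, and the 5 nearest to Foxn1. Pth was named outside this rule, after its values were seen. Hoxa3, Isl1, Bmp4, Trp63, Krt17, Cldn3, Cstb, Krt33b and Ivl were named outside it too, because they were called as deposited. These genes, and Fgf10, Ccl19, Itgb4, Ctsf, Flt3, Xcr1 and Krt34, were not examined under the alternatives. The members and lists were chosen with earlier results of these data known. The steps were run on simulated data with independent noise and the same column trend on every array. That setting is simpler than these arrays, so it does not show that the calls made here hold. Alternatives were each array left out, names by deposited numbers, centring, scaling, robust eBayes, array weights, other windows, single probes and other thresholds.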

Additional observations from a re-analysis of the deposited data

Results flagged for a closer look

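In 2 genes, Pax1 and Enpep, 1 array lay apart from the other 4 by the Dixon criterion, both on the low side of array 5 after position correction. Pax1 had -0.39 there, with a gap to the next array of 0.744 of the whole range, and Enpep had -0.48, with a gap of 0.71. These were 2 of 58 groups of 5 values examined, and chance alone marks about 1 in 20.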

How the results depend on the processing

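The log2 ratio of Foxn1 stayed positive under all alternatives except names by deposited numbers, which put another spot under its name (-0.29 as deposited and -0.23 after correction). With 1 array left out it ranged from 0.50 to 0.57 as deposited. After correction it ranged from 0.49 to 0.59, below the threshold without array 1, 4 or 5 (0.56, 0.58 and 0.58). Other windows and column and row medians kept the Foxn1 call. Members called as deposited numbered 1 to 3 with 1 array left out and 1 at a threshold of 0.01. Under deposited numbers 2 corrected calls carried members' names, but on other spots, beside 765 of all features. After correction the members called numbered 0 to 2 with 1 array left out and 3 with array weights (Foxn1, Krt8 and Ctsl). They numbered 2 at a threshold of 0.1 and 0 at 0.01. Array weights also brought Cd8a, Ctss, Lyz2, Ms4a1 and Psmb4 after correction and Dll4 and Lgmn as deposited past the threshold (limma adjusted p from 0.021 to 0.0428). The 1.3-fold rule gave 1 member, Foxn1. The share of all genes that meets this rule is not given here, so the count is no result about the members. Of all 20861 features, 5126 were called as deposited: 1126 to 6126 with 1 array left out, 7842 with array weights and 1208 at 0.01. After correction 825 were called: 281 to 1738 with 1 array left out, 1607 with scaled arrays, 3841 with array weights, 2869 at 0.1 and 289 at 0.01. Signs turned, with no call on either side, for 4 genes with 1 array left out: Prss16 ranged from -0.14 to 0.0354 (without array 5), Ly75 after correction from -0.0921 to 0.0505 (without array 1), Pax1 from -0.0296 (without array 4) to 0.068, and Wnt5b from -0.0296 (without array 1) to 0.128. With array weights the sign turned for Ly75 after correction (0.0189) and for Pax1 as deposited (-0.017). The causes were not tested. Each array already holds the ratio of a pair, so the test against 0 uses the pairing. No further paired analysis was possible, as there is 1 group. The other single genes were not run under deposited numbers, which name other spots. Spot brightness was not analysed here, so dim spots stay in.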
